A study of Homo sapiens with 6 samples.

Results

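The hepatocyte nuclear factor network was followed in parental and lenvatinib resistant Huh7 cells through 8 transcription factor genes, HNF4A, FOXA1, FOXA2, FOXA3, CEBPA, ONECUT1, PROX1 and NR5A2. They were taken from the expression table by gene name and are 8 of the 26184 genes and loci that the table lists (19974 of them annotated genes). RNA-seq was performed on 3 samples of each cell line. Huh7 P is the wild-type, untreated human hepatocellular carcinoma line. Huh7 LR was derived from it by continuous culture in lenvatinib, a multikinase inhibitor, raised from 1 μM to 20 μM over 10 months, and was then kept in 20 μM. Huh7 LR is a single derived line, so the 3 samples per line were replicates of that line and not of the derivation, and whether the drug was present at harvest was not stated. The reads counted on genes ranged from 62738937 to 71427573 per library, and the 17531 genes and loci that passed the filter on low counts were tested. All 11 hepatocyte markers were tested and summed to 45113 to 54455 CPM (counts scaled to library size by edgeR's TMM method, in parts per 1e6) in Huh7 P and 57957 to 60580 CPM in Huh7 LR.

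Hepatocyte identity is held by a small set of transcription factors that bind each other's promoters and enhancers as well as the genes for plasma proteins, apolipoproteins and metabolic enzymes. HNF4A and NR5A2 (LRH-1) are nuclear receptors, FOXA1, FOXA2 and FOXA3 are forkhead factors able to open closed chromatin, CEBPA is a leucine zipper factor of the differentiated, non-dividing hepatocyte, and ONECUT1 (HNF6) is a cut-homeodomain factor that acts on HNF4A and FOXA2 in liver development. PROX1 is a homeodomain factor needed for hepatoblast migration, and as a corepressor it binds both HNF4A and NR5A2.

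Since these factors are known to act on each other's promoters, the stretches upstream of the members' transcripts were read for their motifs. A set of 5 short motifs was searched on both strands: CAAAGNNCA for HNF4, TGTTTAC or TGTTTGC for FOXA, ATCAAT for ONECUT, TTGCNNAA for C/EBP and CAAGGNCA for NR5A2. RefSeq windows of 250 bases before the transcript start (GRCh38.p14) were at hand for 6 of the 8 members, with a pair of windows each for HNF4A and NR5A2. HNF4A is transcribed from a distal promoter, P2, and a proximal promoter, P1, and both windows are shown because its counts and its FPKM values part in the results. The NR5A2 window from its downstream start and the FOXA1 window are shown for their motif matches, and that of CEBPA because its message differed most. Capitals mark motif matches, and bases inside the member's own exons were left out.
HNF4A upstream start, chr20:44355449-44355698, plus strand: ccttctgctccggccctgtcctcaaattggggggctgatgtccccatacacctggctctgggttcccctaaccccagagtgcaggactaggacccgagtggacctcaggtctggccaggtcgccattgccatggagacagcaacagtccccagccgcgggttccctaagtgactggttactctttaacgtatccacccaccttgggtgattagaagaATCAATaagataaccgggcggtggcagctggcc
HNF4A downstream start, chr20:44400989-44401238, plus strand: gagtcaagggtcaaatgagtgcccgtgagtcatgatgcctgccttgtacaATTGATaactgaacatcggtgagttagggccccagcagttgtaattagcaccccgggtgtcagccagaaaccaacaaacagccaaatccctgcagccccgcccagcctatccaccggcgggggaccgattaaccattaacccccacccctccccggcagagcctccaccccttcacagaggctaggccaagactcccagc
NR5A2 downstream start, chr1:200042341-200042590, plus strand: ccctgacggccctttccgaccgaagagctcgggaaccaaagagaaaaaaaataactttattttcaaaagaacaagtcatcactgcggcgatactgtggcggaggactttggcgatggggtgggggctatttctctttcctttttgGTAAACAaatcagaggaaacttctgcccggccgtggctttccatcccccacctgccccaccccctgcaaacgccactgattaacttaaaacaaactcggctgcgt
FOXA1, chr14:37595349-37595499, minus strand: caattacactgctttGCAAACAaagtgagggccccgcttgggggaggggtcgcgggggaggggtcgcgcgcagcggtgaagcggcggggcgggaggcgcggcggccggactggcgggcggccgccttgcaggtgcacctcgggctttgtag
CEBPA, chr19:33302565-33302784, minus strand: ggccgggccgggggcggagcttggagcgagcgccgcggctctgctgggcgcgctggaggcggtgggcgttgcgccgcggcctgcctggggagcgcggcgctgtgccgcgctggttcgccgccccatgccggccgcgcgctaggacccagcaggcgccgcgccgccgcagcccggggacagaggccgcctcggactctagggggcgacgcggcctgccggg

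The window at the upstream HNF4A start held an ONECUT match that began 33 bases before the start. At the downstream HNF4A start, an ONECUT match lay 200 bases before it. FOXA1 held a FOXA match at 235 bases. The downstream NR5A2 window held a FOXA match at 105 bases. No match was found for CEBPA, ONECUT1, FOXA3 or the upstream NR5A2 start, and the CEBPA window was GC-rich (81.2% G or C). Of the 35116 windows of the same length across the genome, 6.09% held the FOXA motif and 5.58% the ONECUT motif. The other motifs occurred in 4.44% (HNF4), 9.05% (C/EBP) and 4.51% (NR5A2) of windows. These matches are letters in a window and not measured binding sites.

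Following LR induction, CEBPA, ONECUT1, FOXA2 and NR5A2 messages were higher, FOXA3 and PROX1 messages were lower, and HNF4A and FOXA1 did not pass the test. Of the 8 members, 6 differed at an adjusted p under 0.05 by edgeR's quasi-likelihood test after Benjamini-Hochberg correction, beside 45.7% of all 17531 features (23.3% higher and 22.4% lower). Among the 6262 features of an abundance within the members' range, 54.6% were called. The same 6 members had no overlap between the lines, beside 55.9% of all features. The calls of CEBPA, ONECUT1 and FOXA2 held in all 15 alternative analyses, that of NR5A2 was lost without LR3, P2 or P3, and the lower members numbered 1 in 7 alternatives and 0 in 3, which were both limma fits on FPKM and edgeR without P1. None passed the stricter rule of an adjusted p under 0.001 and a change beyond 2-fold, which 6.21% of all features (4.43% higher and 1.78% lower) and 2.81% of those of similar abundance did. The median log2 fold change was 0.20 over the members and 0.0046 over all features, and the median absolute change was 0.28 for the members against 0.33 for all features and 0.24 for those of similar abundance. In bulk RNA, fewer cells carrying a message and less message per cell cannot be told apart.

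**Figure D1:**
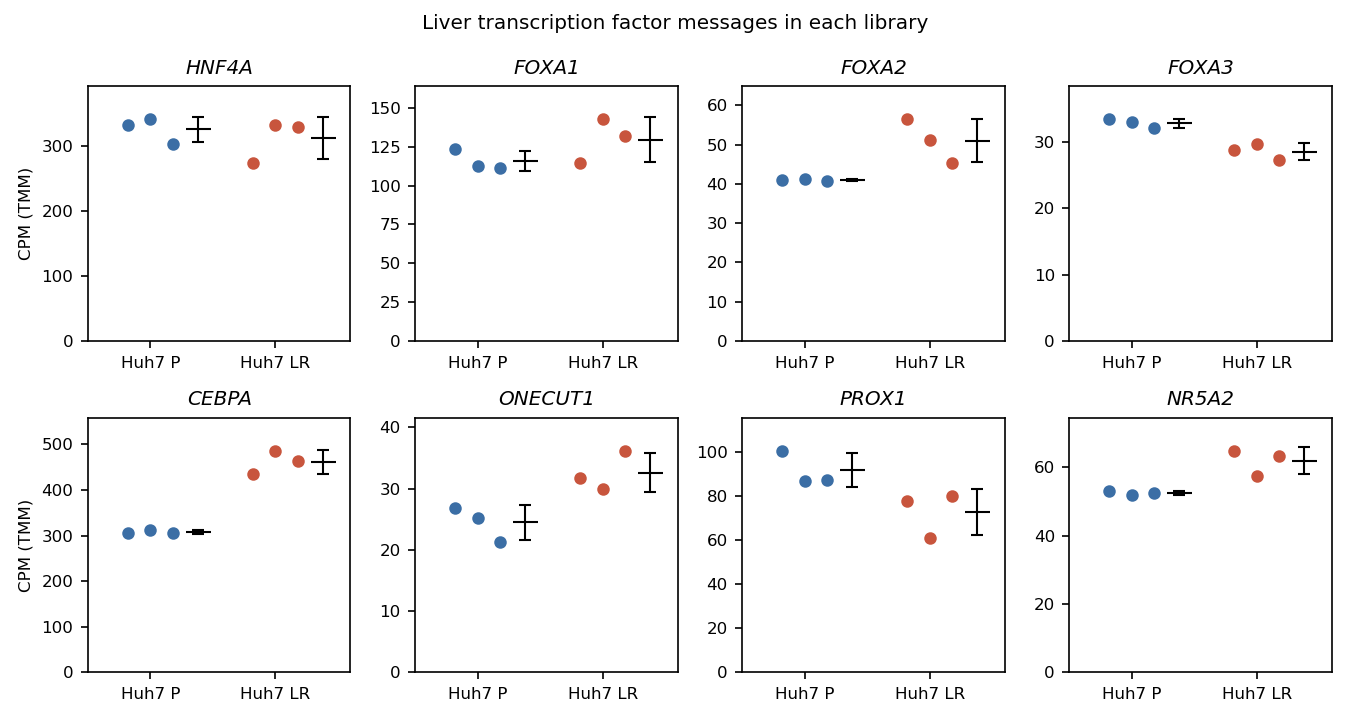
Level of each member in CPM (TMM-scaled) in every library, with Huh7 P in blue, Huh7 LR in red and the mean ± SD (n = 3) in black beside each line. All 3 Huh7 LR points lie above the Huh7 P points for CEBPA, ONECUT1, FOXA2 and NR5A2 and below them for FOXA3 and PROX1, while the points overlap for HNF4A and FOXA1.

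HNF4A, the nuclear receptor at the head of the network (chr20:44355700-44434596, GRCh38), had, together with CEBPA, the most reads of the members in Huh7 P. Its message was 331.9, 340.7 and 303.1 CPM in Huh7 P and 274.1, 332.4 and 329.2 CPM in Huh7 LR. The lines overlapped, with the sample LR1 below every other library and LR2 and LR3 inside the Huh7 P range. The log2 fold change was -0.06 ± 0.09 (SE), with a 95% interval from -0.25 to 0.13 and an adjusted p of 0.608 by edgeR's quasi-likelihood test. The interval does not reach a change of the size seen for CEBPA, but a p of this size does not show that the lines were equal.

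The deposited FPKM values, which the authors scaled for transcript length as well as library size, gave another picture for HNF4A. They read 62.5, 66.3 and 55.6 FPKM in Huh7 P, 51.0 in LR1, 101.5 in LR2 and 96.4 in LR3. LR2 and LR3 thus stood above all Huh7 P libraries in FPKM while lying within their range in reads. The length implied by both columns (counts divided by FPKM and by the library total) was 5.33, 5.05 and 5.32 kb in Huh7 P and 5.54 kb in LR1, but 3.24 kb in LR2 and 3.46 kb in LR3. The highest was 1.71 times the lowest, whereas this ratio lay between 1.02 and 1.07 for the other members. Among 12276 annotated genes the median ratio was 1.04, 308 genes (2.51%) reached 1.5, and 5 genes (0.0407%) had LR2 and LR3 set apart from the other 4 libraries by at least 1.4. That split was the one seen for HNF4A, which is among the 5 genes, and no other split of the libraries was counted. GENCODE release 29 lists 9 HNF4A transcripts, from 540 to 6445 bases. A gene-level count cannot separate transcripts from its distal and proximal promoters, and whether transcript usage or the length estimation differed was not tested. On log2(FPKM + 0.1), limma gave a log2 difference of 0.37 (adjusted p = 0.189), so no difference was called in either unit.

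**Figure D2:**
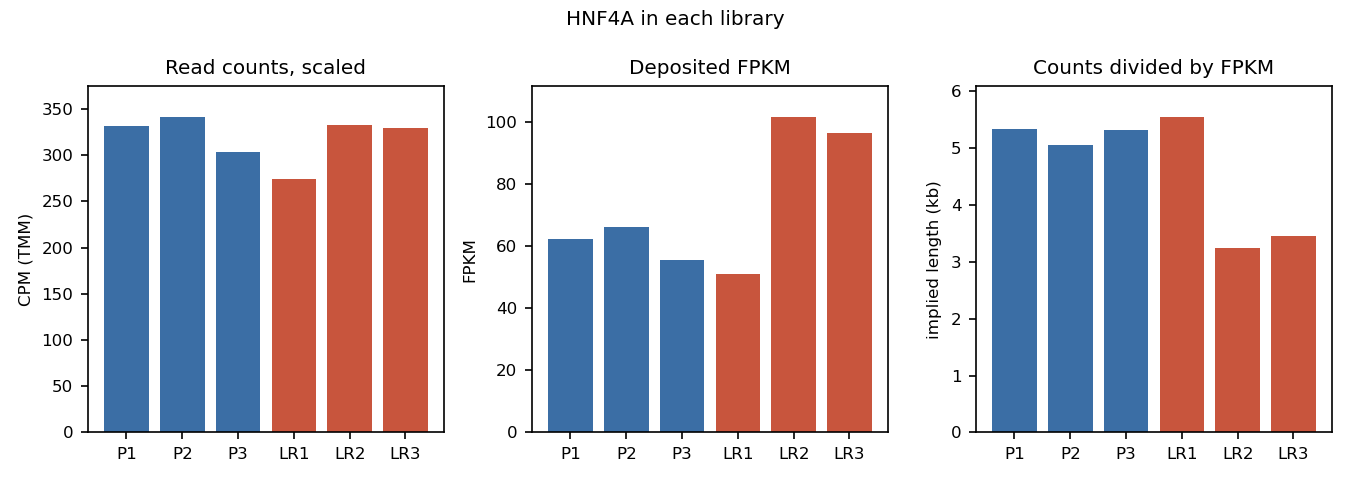
HNF4A in each library as TMM-scaled CPM, as deposited FPKM and as the transcript length in kb implied by counts and FPKM, with Huh7 P bars in blue and Huh7 LR bars in red. Reads differ little between libraries, while LR2 and LR3 have FPKM values of 101.5 and 96.4 and implied lengths of 3.24 and 3.46 kb, against 5.05 to 5.54 kb in the other 4 libraries.

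NR5A2, the nuclear receptor that drives bile acid and cholesterol genes (chr1:200027602-200177424), was 53.0, 52.0 and 52.4 CPM in Huh7 P and 64.9, 57.4 and 63.4 CPM in Huh7 LR. All Huh7 LR libraries were above all Huh7 P libraries, which differed by a ratio of 1.02 between the highest and the lowest. The log2 fold change was 0.24 ± 0.07 (SE, adjusted p = 0.0174, edgeR's quasi-likelihood test). The call was lost without LR3, P2 or P3, with an adjusted p of up to 0.0727 in edgeR's test, and its direction held throughout.

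The 3 FOXA paralogs, forkhead factors with near-identical DNA-binding domains, did not move together. FOXA2 (chr20:22581005-22585455) was 40.9, 41.2 and 40.8 CPM in Huh7 P and 56.4, 51.1 and 45.4 CPM in Huh7 LR. Every Huh7 LR library was higher, LR1 most and LR3 least, and the log2 fold change was 0.31 ± 0.08 (SE, adjusted p = 0.0104, edgeR). FOXA3 (chr19:45863989-45873797) was 33.4, 33.0 and 32.1 CPM in Huh7 P and 28.8, 29.7 and 27.2 CPM in Huh7 LR. It was lower in all Huh7 LR libraries, at 0.87-fold the parental level, with a log2 fold change of -0.20 ± 0.07 (SE) and an adjusted p of 0.0438 in edgeR's test. That call was held in 5 of 15 alternative analyses and its adjusted p reached 0.177, and it was lost with any of 5 alternative filters, units or blocks and with each library but LR2 left out. FOXA1 (chr14:37589984-37596059) was 123.4, 112.5 and 111.5 CPM in Huh7 P and 114.3, 142.7 and 131.8 CPM in Huh7 LR. LR1 fell within the Huh7 P range and LR2 and LR3 above it. Its log2 fold change was 0.16 (95% interval -0.03 to 0.36) and was not called (adjusted p = 0.158, edgeR), but it was called at 0.24 without LR1 (adjusted p = 0.0207, edgeR).

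By FPKM, which allows genes of different length to be set side by side, FOXA1 supplied 55.3% ± 0.98 of the summed FOXA message in Huh7 P and 56.5% ± 4.01 in Huh7 LR (SD, n = 3). The share of FOXA2 was 21.6%, 23.0% and 23.0% in the parental samples, against 29.4%, 24.1% and 23.4% in the resistant ones. That of FOXA3 was 22.0%, 22.4% and 22.0%, against 18.7%, 17.8% and 17.2%. FOXA2 and FOXA3 shares thus lay within 1 percentage point of each other in the parental line, and FOXA2 exceeded FOXA3 in each resistant library. By counts per kilobase of annotated exon, FOXA2 exceeded FOXA3 in the parental samples too (25.4%, 26.8% and 26.9% against 24.6%, 25.4% and 25.1%). The summed FOXA message was 69.2 ± 3.08 FPKM in Huh7 P and 77.1 ± 3.81 FPKM in Huh7 LR. These shares are a description and were not tested.

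Reads over FOXA2 have a neighbour that needs care. The table lists AL121722.1 (chr20:22560553-22584261, same strand), of which 98.6% of 4849 exon bases are shared with the long noncoding RNA LINC00261 and 70 exon bases with FOXA2. It was 145.2, 135.3 and 136.9 CPM in Huh7 P and 234.7, 210.5 and 236.0 CPM in Huh7 LR. The log2 difference was 0.71 ± 0.07 (SE, adjusted p = 2.24e-05, edgeR). LR libraries were above P libraries throughout. The sum of both genes, most of it reads of AL121722.1, was higher by 0.63 on the log2 scale (adjusted p = 3.68e-05, edgeR) and is no measure of FOXA2 alone. How reads over the shared bases were assigned was not stated. For FOXA1, 16 exon bases are shared with TTC6 on the opposite strand, whose log2 fold change was -0.14 (adjusted p = 0.314, edgeR). Antisense transcripts share 659 and 482 exon bases with CEBPA and 171 with PROX1 in GENCODE, and without strand information their reads cannot be told from those of the member.

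CEBPA (chr19:33299934-33302564) showed the largest difference of the 8. It was 306.8, 312.7 and 305.7 CPM in Huh7 P and 434.7, 486.1 and 463.3 CPM in Huh7 LR. The lines were far apart compared with the spread within them, since the Huh7 P libraries differed by a ratio of 1.02 and the Huh7 LR libraries by 1.12. The message was 1.496-fold higher after LR induction, with a log2 fold change of 0.58 ± 0.07 (SE) with a 95% interval from 0.43 to 0.73 and an adjusted p of 5.55e-05 by edgeR's quasi-likelihood test. All 15 alternative analyses called it, with log2 fold changes between 0.55 and 0.62. In FPKM it rose from 107.6 ± 1.69 to 164.1 ± 7.76 (SD, n = 3), the highest level of any member in both lines.

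ONECUT1 (chr15:52756989-52791078) was 26.9, 25.3 and 21.3 CPM in Huh7 P and 31.7, 30.0 and 36.2 CPM in Huh7 LR. All Huh7 LR libraries were higher, although the Huh7 P libraries differed among themselves by a ratio of 1.26. The log2 fold change was 0.41 ± 0.10 (SE, adjusted p = 0.00779, edgeR's quasi-likelihood test), and every alternative kept the call, with log2 fold changes between 0.32 and 0.48. PROX1 (chr1:213983181-214041502) was 100.6, 86.9 and 87.4 CPM in Huh7 P and 77.8, 60.8 and 79.9 CPM in Huh7 LR. LR2 was the lowest and P1 the highest. Its log2 fold change was -0.33 ± 0.10 (SE, adjusted p = 0.0236, edgeR). Without P1 it was -0.26 and no longer called (adjusted p = 0.102, edgeR), and on FPKM values limma gave -0.28 (adjusted p = 0.0807). The corepressor was thus at 0.79-fold the parental level in a comparison whose call rested on P1, while its partner NR5A2 was 1.18-fold higher and its partner HNF4A was not called.

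**Figure D3:**
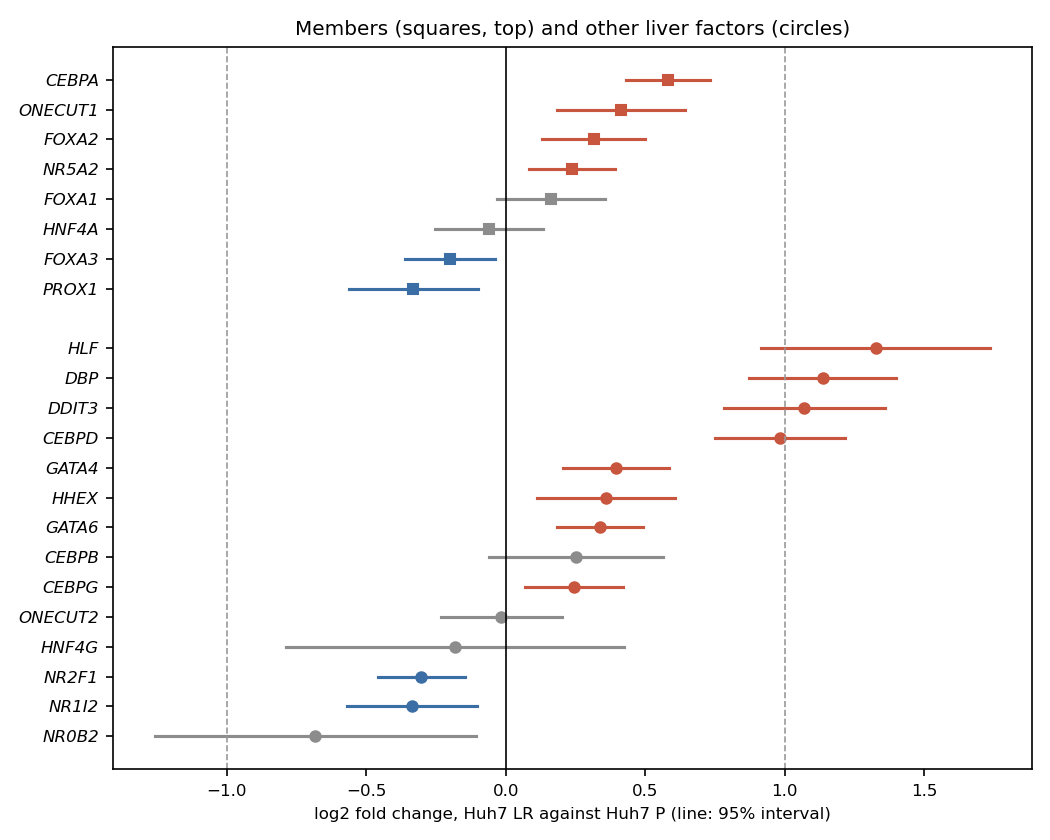
Log2 fold change of Huh7 LR against Huh7 P with its 95% interval for the 8 members (squares) and 14 other liver factors (circles), in red where called higher, blue where called lower and grey where not called at an adjusted p of 0.05 (edgeR). Dashed lines mark a 2-fold change. The members span -0.33 for PROX1 to 0.58 for CEBPA and lie inside the dashed lines, while HLF, DBP and DDIT3 lie beyond.

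Per length, the order of the factors in Huh7 P was CEBPA, HNF4A, FOXA1, FOXA2, FOXA3, NR5A2, ONECUT1 and PROX1, from 107.6 to 10.3 FPKM. FOXA2 and FOXA3 were not separated beyond the spread of their libraries, nor NR5A2 from ONECUT1 or ONECUT1 from PROX1. In Huh7 LR the first 4 places were the same and each was apart from the next. By mean FPKM FOXA3 stood in the fifth place in Huh7 P and in the seventh in Huh7 LR, below NR5A2 (14.95 ± 1.04 FPKM) and ONECUT1 (14.9 ± 1.51 FPKM), with 13.8 ± 0.83 FPKM (SD, n = 3), although its range overlapped those of both. By counts per kilobase of annotated exon FOXA3 held the fifth place in both lines, so this difference in place depends on the lengths used for FPKM. PROX1 was last in both lines, at 10.3 ± 0.99 and 8.52 ± 1.33 FPKM, and in Huh7 LR all its values lay below those of FOXA3. By counts per kilobase of annotated exon PROX1 took the sixth place in Huh7 P.

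**Figure D4:**
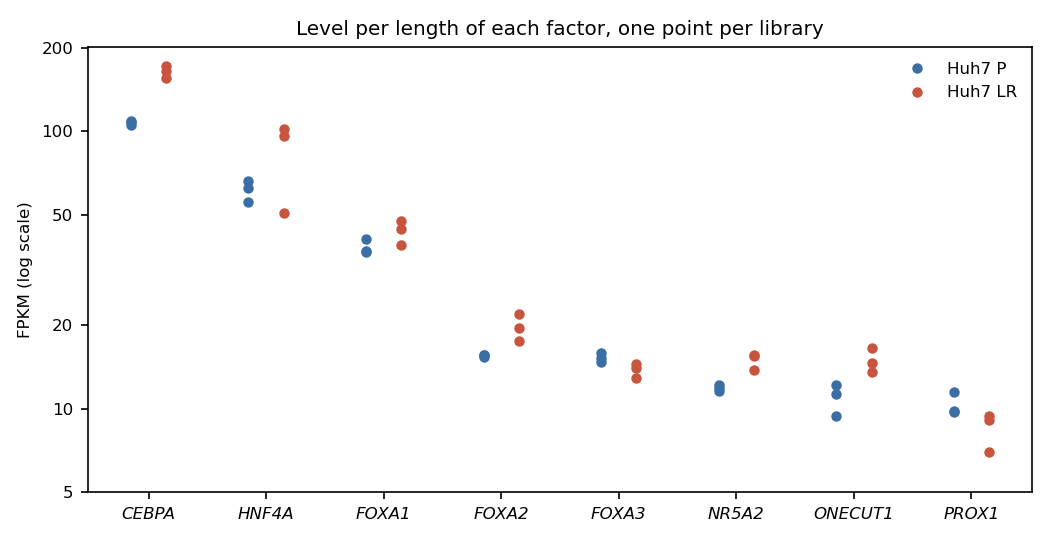
FPKM of each member on a logarithmic axis, with 1 point per library, Huh7 P in blue and Huh7 LR in red. CEBPA leads in both lines at means of 107.6 and 164.1 FPKM, HNF4A splits into a low and 2 high Huh7 LR points, and PROX1 is last at means of 10.3 and 8.52 FPKM.

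The 3 Huh7 LR libraries did not rank alike across members. LR2 was the highest of them for HNF4A, FOXA1, FOXA3 and CEBPA and the lowest for ONECUT1, PROX1 and NR5A2. LR1 was the highest for FOXA2 and NR5A2, and LR3 for ONECUT1 and PROX1. The widest ratio between the highest and lowest Huh7 LR library was 1.31, for PROX1, and the narrowest was 1.09, for FOXA3. Across the 6 libraries, the Pearson r of HNF4A with the other members on log2 CPM ranged from -0.59 (FOXA2) to 0.45 (FOXA1).

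The genes whose log2 CPM followed each member most closely over the 6 libraries were drawn from 12293 annotated genes of at least 1 CPM, as a description. For CEBPA they were OAF, CYP1A1 and FBLN5 (r = 0.9996, 0.9995 and 0.9994), and for NR5A2 they were RIMKLB, CHD6 and LMBRD2 (0.9987, 0.9974 and 0.9971). FOXA3 was followed by SOWAHA, PASK and RPP25 (0.9992, 0.9956 and 0.9951) and PROX1 by the zinc finger genes ZNF573 and ZNF529 and by RBM15 (0.9978, 0.9939 and 0.992). FOXA2 was followed by SCNN1A, CYLD and FCHSD1 (0.9933, 0.9926 and 0.99) and ONECUT1 by ZGLP1, MAN2C1 and GLCCI1 (0.9903, 0.9895 and 0.9866). FOXA1 was followed by TP73, LRRC41 and ATG4B (0.988, 0.9876 and 0.9869) and HNF4A by CHDH, PSMD9 and TRIM14 (0.986, 0.9841 and 0.9791). Since the 6 points fall in 2 lines, the values for the 6 called members share the difference between the lines, whereas HNF4A and FOXA1 overlapped between them.

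Annotated genes lying within 200 kb of a member were compared in the same fit, and loci without an annotated gene were not placed. Around CEBPA, 5 of the 6 tested neighbours were higher in Huh7 LR, with a median log2 fold change of 0.45. They were CEBPG, a C/EBP family gene transcribed away from it 70.8 kb upstream (0.24, adjusted p = 0.0266), PEPD, which encodes prolidase (0.43, adjusted p = 0.00297), the amino acid transporter gene SLC7A10 (0.52, adjusted p = 0.000916), LRP3 (0.47, adjusted p = 0.00414) and WDR88 (0.74, adjusted p = 0.0368, edgeR). GPATCH1 was not called (0.08, adjusted p = 0.504, edgeR). The calls of CEBPG and WDR88 were each lost with any library but LR2 left out (adjusted p up to 0.0963 and 0.102, edgeR), so 3 of the 6 were called throughout. Around HNF4A, 4 of 8 tested genes were higher (TTPAL, FITM2, SERINC3 and PKIG) and 2 lower (R3HDML and ADA). Its nearest neighbours were R3HDML, at a mean of 0.469 CPM in Huh7 P and 0.227 CPM in Huh7 LR, and TTPAL (log2 fold change 0.24). The call of R3HDML was lost with each library left out (adjusted p up to 0.156) and that of TTPAL with each but LR1 (up to 0.132, edgeR), while FITM2 was lost without P2 or P3 (up to 0.0991) and ADA without P2 (0.0549). Around FOXA3, 4 of 12 were higher (IRF2BP1, MYPOP, DMPK and GIPR) and 1 lower (FBXO46, lost without P1 or LR3, adjusted p up to 0.0616, edgeR), and its nearest neighbours were SYMPK (-0.05, adjusted p = 0.628) and IRF2BP1 (0.32, adjusted p = 0.00469, edgeR). ONECUT1 had FAM214A 47.2 kb downstream, 1.89-fold higher following LR induction (0.92 ± 0.09 SE on the log2 scale, adjusted p = 1.09e-05, edgeR). The 2 tested genes near FOXA1, TTC6 and MIPOL1, were not called, and the table listed no annotated gene within 200 kb of NR5A2 or PROX1. Over all members, 15 of 31 tested neighbours were higher and 3 lower, beside 23.3% and 22.4% of all features.

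**Figure D5:**
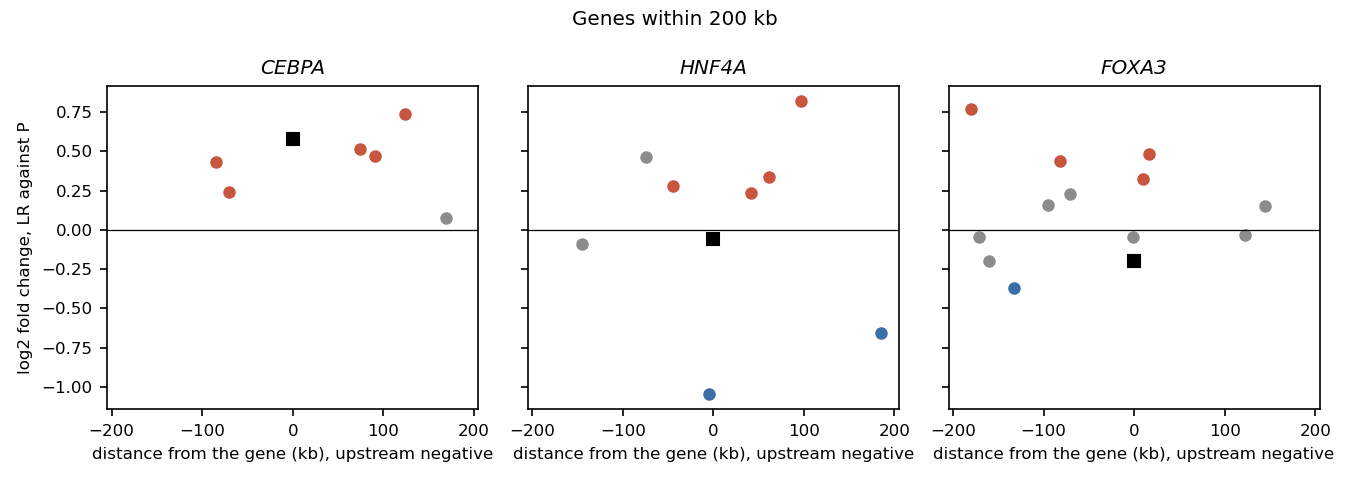
Log2 fold change of each tested gene within 200 kb against its distance in kb from CEBPA, HNF4A or FOXA3 (upstream negative), in red where called higher, blue where called lower and grey where not called (edgeR). The black square is the member itself. Of the 6 genes around CEBPA, 5 are red, between 0.24 and 0.74, whereas both directions occur around HNF4A and FOXA3.

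Of 9 tested relatives of the members, 3 were higher and 0 lower, beside 23.3% and 22.4% of all features, with a median log2 fold change of 0.25. CEBPD, a C/EBP factor of the acute phase, was 10.1, 9.8 and 10.3 CPM in Huh7 P and 22.8, 19.0 and 18.1 CPM in Huh7 LR (log2 fold change 0.98 ± 0.11 SE, adjusted p = 3.20e-05, edgeR). DDIT3 (CHOP), the C/EBP relative of the stress response that dimerises with other C/EBP factors, rose 2.10-fold (adjusted p = 7.19e-05, edgeR), and CEBPG was the other call. CEBPB was not called, with 9.68 ± 0.46 CPM in Huh7 P and 11.5 ± 2.35 CPM in Huh7 LR (SD, n = 3, adjusted p = 0.170, edgeR), but its log2 fold change of 0.25 was 0.39 without LR2 (adjusted p = 0.027) and 0.09 without LR1 (adjusted p = 0.605, edgeR). HNF4G, the paralog of HNF4A, was 37.7, 41.5 and 18.1 CPM in Huh7 P and 19.7, 29.4 and 36.8 CPM in Huh7 LR, a spread within each line larger than the difference between them (log2 fold change -0.18, adjusted p = 0.626, edgeR). ONECUT2 was 140.7 ± 10.8 CPM in Huh7 P and 139.1 ± 18.2 CPM in Huh7 LR (SD, n = 3) and was not called.

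Among 26 other liver transcription factors, 10 were higher and 4 lower (23.3% and 22.4% over all features), with a median log2 fold change of 0.12. HLF and DBP, PAR-type leucine zipper factors of the circadian output, were the largest. HLF was 4.8, 4.5 and 5.5 CPM in Huh7 P and 15.9, 9.0 and 12.3 CPM in Huh7 LR, a 2.51-fold rise (adjusted p = 0.000193, edgeR), and DBP rose 2.20-fold (adjusted p = 2.64e-05, edgeR). The endodermal zinc finger factors GATA4 and GATA6 rose by log2 fold changes of 0.40 ± 0.09 and 0.34 ± 0.07 (SE), with adjusted p of 0.00340 and 0.00253 in edgeR's test. The 4 lower factors were NR1I2 (PXR), NR2F1, ZHX2 and CREB3L3, at log2 fold changes between -0.34 and -0.19. The call held with any library left out for NR2F1 and ZHX2. It was lost for NR1I2 without LR1, P2 or P3 (adjusted p up to 0.0796) and for CREB3L3 with any library but LR1 left out (up to 0.138, edgeR). Both calls were also lost in limma on FPKM, and that of CREB3L3 in edgeR without a filter.

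Of 18 tested cofactors of the members, 5 were lower and 1 higher, beside 22.4% and 23.3% of all features, with a median log2 fold change of -0.08. MED1, the Mediator subunit that docks nuclear receptors, fell from 184.9 ± 6.09 to 146.3 ± 4.88 CPM (SD, n = 3, adjusted p = 0.00166, edgeR). SMARCA4, an ATPase of the SWI/SNF remodeller, fell by 0.35 and PPARGC1B, a coactivator, by 0.39 on the log2 scale (adjusted p = 0.00350 and 0.00390, edgeR). The corepressor NCOR1 and the demethylase KDM1A fell by 0.22 and 0.30 on the log2 scale, and the deacetylase HDAC3 rose by 0.30. These calls were lost for NCOR1 without P2 (adjusted p = 0.0797), for KDM1A without LR3, P2 or P3 (up to 0.0646) and for HDAC3 without P1 or P2 (up to 0.057, edgeR). NR0B2 (SHP), the receptor without a DNA-binding domain that NR5A2 induces and that represses NR5A2 and HNF4A, was 2.31, 2.17 and 1.93 CPM in Huh7 P and 1.80, 0.83 and 1.38 CPM in Huh7 LR. All Huh7 LR libraries were below all Huh7 P libraries, with a log2 fold change of -0.68 that missed the threshold (adjusted p = 0.0523, edgeR). It was called in 7 of 15 alternative analyses, among them DESeq2 (adjusted p = 0.0413), both limma fits, edgeR without a filter (adjusted p = 0.0494) and edgeR without LR1 (-0.96, adjusted p = 0.00944), whereas without LR2 the change was -0.42 (adjusted p = 0.132, edgeR). PPARGC1A, the coactivator of HNF4A in gluconeogenesis, was near the floor at 0.157 ± 0.063 and 0.319 ± 0.041 CPM (SD, n = 3) and was not called (adjusted p = 0.0931, edgeR).

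Genes known as targets of the members were then counted, with several belonging to more than one list. Of 18 HNF4A targets tested, 10 were higher and 3 lower (median log2 fold change 0.37), and the lower ones were APOA4, AGT, which was lost without LR3 (adjusted p = 0.0546, edgeR), and NR1I2. The apolipoprotein gene APOC3 was 27.1, 26.4 and 23.0 CPM in Huh7 P and 114.4, 84.8 and 93.5 CPM in Huh7 LR, 3.82-fold higher (adjusted p = 5.68e-07, edgeR). APOA2 was 2.81-fold higher (adjusted p = 3.13e-05) and the coagulation factor gene F10 2.08-fold higher (adjusted p = 1.13e-06, edgeR). Of 13 CEBPA targets tested, 7 were higher and 3 lower (CSF3R, CPS1 and GYS2, the last lost without LR3 or any P library, with an adjusted p up to 0.114 in edgeR and 0.319 in DESeq2). The median log2 fold change was 0.46. TFR2, the transferrin receptor of iron sensing, rose from 2.65, 3.79 and 2.42 CPM in Huh7 P to 20.6, 16.5 and 18.6 CPM in Huh7 LR, 6.29-fold (adjusted p = 1.05e-06, edgeR). The alcohol dehydrogenase gene ADH1A had 0 counts in every Huh7 P library and 37, 95 and 69 counts in Huh7 LR, at least 21.5-fold higher against a floor of 3 counts per library. CSF3R, the granulocyte colony-stimulating factor receptor and a CEBPA target of myeloid cells, went the other way, from 5.50, 7.001 and 7.19 CPM to 2.82, 1.23 and 1.47 CPM (0.28-fold, adjusted p = 0.000253, edgeR). CPS1, the first enzyme of the urea cycle and listed for both FOXA and CEBPA, fell by 0.62 on the log2 scale (adjusted p = 0.000321, edgeR).

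Of 9 FOXA targets tested, 3 were higher (ALB, TTR and TF, the genes of the plasma proteins albumin, transthyretin and transferrin, with TF, also a listed HNF4A target and hepatocyte marker, not called in either limma fit on FPKM) and 1 lower (CPS1), with a median of 0.13. Of 5 ONECUT1 targets tested, 3 were higher and 0 lower (median 0.31), namely FOXA2, TTR and G6PC. FOXA2 and HNF4A, which belong to the 5, are themselves members described above, and the median is the value of FOXA2. This list is therefore not separate from the members. Of 8 NR5A2 targets, 3 were higher and 0 lower (median 0.08). They were SCARB1, the HDL receptor, at 191.2 ± 5.40 CPM in Huh7 P and 289.0 ± 35.0 CPM in Huh7 LR (SD, n = 3, adjusted p = 0.000287, edgeR), APOA1, 1.396-fold higher, and CYP8B1, a bile acid enzyme with 2 to 6 counts in Huh7 P and 14 to 20 in Huh7 LR, whose call was lost without LR1, LR3, P1 or P3 (adjusted p up to 0.0575, edgeR). Over all features, 23.3% were higher and 22.4% lower, and these shares apply to each of the target lists.

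Of the 11 hepatocyte markers, 6 were higher and 0 lower, with the fibrinogen gene FGB 5.62-fold and AHSG 3.33-fold higher. These counts and those of the other cell types' markers that follow stand beside 23.3% higher and 22.4% lower over all features. AFP, the most abundant hepatocyte marker, was 22997 CPM in Huh7 P and 19620 CPM in Huh7 LR and was not called (log2 fold change -0.23, adjusted p = 0.0923, edgeR). KRT8 (-0.17), KRT18 (-0.16), APOB (0.17) and SERPINA1 (0.09) were not called either. ALB, which weighs most in the rise of the list's sum, was 12951 CPM in Huh7 P and 21566 CPM in Huh7 LR. Of the cholangiocyte markers, 3 of 5 tested were higher and 1 lower, since CFTR, TFF3 and EPCAM rose 3.18-fold, 2.11-fold and 1.23-fold while KRT19 fell to 0.24-fold (adjusted p = 3.92e-07, edgeR). KRT7 had 3 counts in LR2 and 0 in the other libraries. The list summed to 459.3 to 477.5 CPM in Huh7 P and 519.8 to 524.5 CPM in Huh7 LR. The intestinal markers moved in both directions, 2 of 5 higher and 2 lower, with SI 3.24-fold and CDX2 1.49-fold higher and LGR5 and VIL1 lower (VIL1 lost with any library but LR2 left out, adjusted p up to 0.118, edgeR), sums of 627.2 to 644.3 and 581.8 to 702.4 CPM, and MUC2 at 0 in all libraries. Endothelial markers summed to 38.8 to 47.5 and 65.0 to 71.2 CPM, with PECAM1 1.56-fold higher (43.95 CPM in Huh7 P), VWF also called (lost without LR2, LR3, P1 or P2, adjusted p up to 0.0614, edgeR) and CDH5, LYVE1, PDPN, KDR and TEK at 0 in every library. Fibroblast markers summed to 2.27 to 2.43 and 5.12 to 8.22 CPM, with COL1A1 and PDGFRB higher of 3 tested and DCN and THY1 at 0. Leukocyte markers summed to 62.4 to 67.7 and 10.1 to 14.03 CPM through LYZ, which fell to 0.14-fold (adjusted p = 4.00e-08, edgeR), with HLA-DRA and TYROBP at 0. The part of these shifts in the members' differences was not tested.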

How the data were processed

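Poly(A) libraries of 3 Huh7 P and 3 Huh7 LR samples were made with a kit that does not mark strand. The authors deposited, for each gene and library, a read count without normalization and an FPKM value scaled for transcript length and library size. The submitters' notes name TopHat2, Cufflinks, DESeq and the mouse build mm10, and the labels describe insect larvae, whereas all 19974 identifiers are human ones of GENCODE release 29 (GRCh38), which gave positions and overlaps. Counts totalled 62738937 to 71427573 in Huh7 P (median 66961548) and 63233655 to 70768720 in Huh7 LR (median 67284160). Loci without an annotated gene held 2.86% to 3.35%, and 34 lines naming no gene were left out. P-values measure the spread between samples of 1 line each.

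The lines were compared in edgeR 4.0.16 under R 4.3.3, with filterByExpr (minimum count 10, minimum total 15), TMM factors and the quasi-likelihood test, and p-values were adjusted by Benjamini-Hochberg over 17531 features. Tested on simulated data (17240 genes), it recovered 60.6% of planted log2 changes of 0.5 and 96.8% of those of 1, with 5 of 17040 unchanged genes called. Only 66 genes carried a planted change of 0.5 and 62 a change of 1, whereas 45.7% of features were called in the data. These rates therefore need not hold for the data. The alternatives were DESeq2 1.42.0 and its size factors, limma 3.58.1 on log2(FPKM + 0.1) or log2(FPKM + 1) where 3 libraries had 0.5 FPKM or more, other filters, robust estimation, annotated genes alone, a replicate block and leaving out each library. Counting FOXA2 with AL121722.1 was chosen after seeing the data.

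The members and lists were chosen with earlier results of these data known. Named genes were the members, list genes past 2-fold (at most 6 a list), NR0B2, HNF4G, PPARGC1A, ONECUT2 and CEBPB, the 3 genes most like each member, and overlapping or nearest genes. Other genes were named after their values were seen, and some list genes are not reported here, nor counted in their lists. Figures were drawn with matplotlib 3.10.9.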

Additional observations from a re-analysis of the deposited data

How the results depend on the processing

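CEBPA, ONECUT1 and FOXA2 kept direction and call in all 15 alternative analyses, and no member passed 2-fold in any. FOXA3 was no longer called with at least 10 counts in every library (-0.18), without a filter (-0.20), with the replicate block (-0.20) or by limma on FPKM (-0.15 and -0.14), so that the lower members numbered 1 in the first 3 and 0 in both limma fits, where PROX1 was also not called (-0.28 and -0.26). HNF4A turned to 0.37 in both limma fits, on FPKM values whose implied length was shorter in LR2 and LR3. ONECUT2, near 0 throughout, turned to 0.0022 with at least 10 counts and to 0.0057 in both limma fits. The FOXA1 share by counts per kilobase of exon was 48.61% and 49.89%. The causes of these shifts were not tested.

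With each library left out in turn, the log2 fold change ranged from -0.11 to 0.024 for HNF4A, from 0.096 to 0.24 for FOXA1, from -0.22 to -0.17 for FOXA3, from -0.40 to -0.21 for PROX1 and from 0.20 to 0.30 for NR5A2. CEBPB ranged from 0.086 to 0.39, NR0B2 from -0.96 to -0.42, HNF4G from -0.47 to 0.040 and ONECUT2 from -0.086 to 0.097. Higher members numbered 3 to 5, lower members 0 to 2 and lower genes of the other lists 9 to 15 (9 without P2).

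Features past 2-fold numbered 268 higher and 84 lower with limma on log2(FPKM + 1), 589 and 212 with limma on log2(FPKM + 0.1), and 776 and 312 with edgeR on counts. Deviations of same-numbered samples of the lines correlated at 0.029, 0.0314 and 0.0317, and those of the other pairs at -0.0279 to -0.00213. Every sample thus correlated best with its own number. Values this small cannot decide whether the numbers pair the samples. With the replicate block the calls of FOXA3, CREB3L3, WDR88 and R3HDML were lost and NR0B2 was called. Both limma fits also lost NR1I2, CREB3L3, TF and VIL1. Every member had at least 1394 counts in every library.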
